A study of Nothobranchius furzeri with 20 samples.

Results

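In the skin of male turquoise killifish, 150 gene IDs formed a set whose transcripts were at their lowest at 7 weeks and had higher levels both before, at 5 weeks, and after, at 10 weeks. Levels are in CPM, a gene's raw count times 1e6 over the total count of its library, a scale that compares libraries and not genes of unequal length. An ID entered the set when its mean over the 20 libraries lay between 1 and 2000 CPM and its highest 7 weeks library lay below its lowest library of 5 and 10 weeks. Of 26739 IDs, 17203 had a mean within these limits and 161 met the rule. The 150 with the widest gap on log2(CPM + 0.5) were kept. The members were thus chosen by their levels at 5, 7 and 10 weeks, and those levels are given as a description. The libraries of 14 weeks took no part in the choice, other than through the limits on the mean.

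The libraries came from skin of male Nothobranchius furzeri of the strain GRZ, sampled at 5, 7, 10 and 14 weeks of age, with 5 libraries at each age and no treatment or allele named in the labels. The strain, sex and tissue were thus the same in all 4 groups. The series title gives age as the only contrast. Whether each library of an age is a fish of its own is not in the labels, and p-values therefore reflect the spread among libraries, which may be partly technical.

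The turquoise killifish lives in seasonal pools, and the GRZ strain is known for its short life and for rapid growth and sexual maturation. Fish skin holds a living, mucus-covered epidermis over a dermis of fibroblasts, collagen, scales, pigment cells, vessels and nerves, and bulk skin RNA also carries whatever muscle, blood and immune cells come with it. In males of this species the skin takes on its adult colour as the fish mature. In bulk RNA, fewer cells of a type and less RNA per cell cannot be told apart.

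Genes carry only an ID in the files, and a RefSeq table of the species' genes held none of these 26739 IDs. The IDs are therefore described by their levels, lengths and co-variation, with no gene function, and neither the markers of skin nor those of other tissues could be looked up. For the same reason no sequence is shown. Only 4 IDs are printed by name.

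Library totals ran from 21581757 to 35137022 counts. The first principal component of all IDs within the limits, with 41.9% of the variance, set 4 libraries apart. These were replicate 3 of 7 weeks (63.1), replicate 4 of 10 weeks (91.2) and replicates 3 and 4 of 14 weeks (123 and 159), while the others lay between −60 and 35.2. The 5 weeks libraries also split. On the second component, with 20.8%, replicates 1, 2 and 3 of 5 weeks stood at 50.6, 57.8 and 27.3, beside the 7 weeks libraries at 27.8 to 63.2. Replicates 4 and 5 stood at −44.4 and −32.5, beside the 10 weeks libraries at −51.1 to −30.3. The 10 most abundant IDs took 19.7% to 26.2% of the counts at 5 weeks, 16.9% to 26% at 7 weeks, 10.9% to 23.9% at 10 weeks and 8.81% to 21.4% at 14 weeks. CPM moves with that share, and its part in the levels below was tested only through the other scalings given with them.

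Together the 150 IDs carried a small share of the skin transcriptome. Their sum, as mean ± SD of 5 libraries, was 3221 ± 514 CPM at 5 weeks and 1842 ± 214 CPM at 7 weeks. It was 4039 ± 453 CPM at 10 weeks and 3929 ± 368 CPM at 14 weeks. In the libraries of 7 weeks, in replicate order, the sum was 1904, 1550, 2025, 1691 and 2038 CPM. At 5 weeks it was 2800, 2739, 3058, 3595 and 3914 CPM, and at 10 weeks 3253, 4181, 4421, 4184 and 4158 CPM. All 5 libraries of 7 weeks lay below every library of 5 and 10 weeks, as the rule requires of each ID. The 14 weeks libraries, which the rule did not use in this way, stood at 4503, 3749, 3526, 4027 and 3838 CPM. Each of them was higher than every 7 weeks library, and all 5 fell within or just above the range of 10 weeks.

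**Figure D1:**
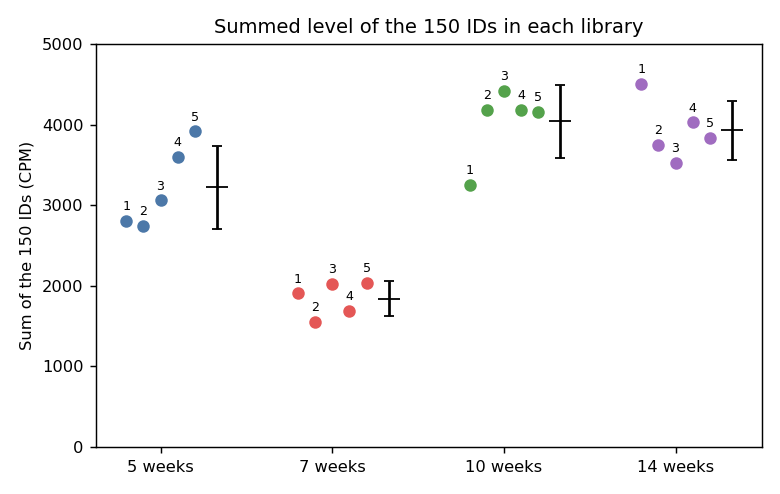
Sum of the 150 IDs in CPM (vertical axis, from 0) in each of the 20 libraries, by age. Points are libraries with their replicate number, and the bar beside each age is the mean with its SD (n = 5). The 7 weeks libraries lie between 1550 and 2038 CPM and the 14 weeks libraries between 3526 and 4503 CPM.

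Most members were genes of middling abundance. Their mean level over all libraries had a median of 14.8 CPM, with quartiles of 6.67 and 30.5 CPM and a range of 1.45 to 109 CPM. The 17203 IDs within the limits had a median of 13.6 CPM. Per kilobase of gene length the median mean level was 6.72 CPM among members and 5.43 CPM among all those with a length. The length itself, recovered from the 2 deposited tables, had a median of 2660 bases among the 150 members and 2778 bases among the 17103 IDs with a length. Of the members, 68 (45.3%) were longer than 3000 bases, against 46.5% of all IDs with a length. The 257 IDs that met the mirrored rule, highest at 7 weeks, had a median length of 3710 bases in the 256 with a length. Length differed little between members and all IDs, and no test of it was made.

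The fall at 7 weeks was moderate in size. On log2(CPM + 0.5), the 7 weeks mean minus the 5 weeks mean had a median of −0.75 among members, with quartiles of −0.95 and −0.57 and a range of −1.76 to −0.26. Against 10 weeks the median was −1.05, with quartiles of −1.34 and −0.75 and a range of −3.04 to −0.37. The difference reached 2-fold in 28 members against 5 weeks and in 81 against 10 weeks. Over all IDs within the limits the same medians were 0.13 and 0.12, so 7 weeks was not a low point of the table as a whole. With edgeR's quasi-likelihood test at an adjusted p under 0.05, 61 members were lower at 7 than at 5 weeks, where 0.99% of the 19192 tested IDs were, and 141 were higher at 10 than at 7 weeks, where 10.5% were. These counts rest on the contrast that chose the members and are read no further. The counts that follow show only how far the number called moves with the libraries and the method. Without 5 weeks replicates 4 and 5 the count between 7 and 5 weeks was 1, and without single libraries it ran from 6, without 7 weeks replicate 4, to 75, without 14 weeks replicate 1. Leaving out replicate 3, 4 or 5 of 5 weeks gave 29, 12 and 19, and leaving out replicate 1, 2 or 3 of 7 weeks gave 24, 13 and 33. DESeq2 gave 116.

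**Figure D2:**
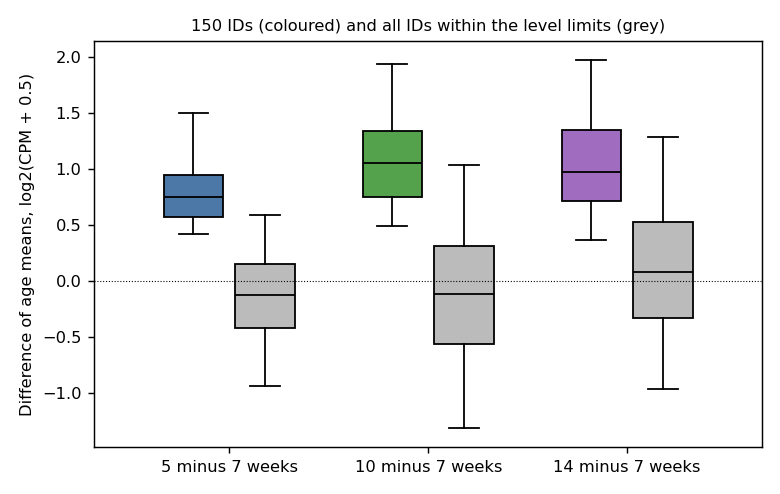
Difference between the mean of each other age and the 7 weeks mean on log2(CPM + 0.5), for the 150 IDs (coloured) and for all 17203 IDs within the limits (grey). Boxes are quartiles with the median and whiskers run from the 5th to the 95th percentile. The members lie above 0 at 5 and 10 weeks by the rule. Their 14 minus 7 weeks median is 0.97 against 0.08 for all IDs. The 7 weeks levels were chosen as low, which raises the members' value, and only the 14 weeks side is apart from the rule.

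The gaps between the libraries that bound the rule were narrow. The widest was 0.712 on the log2 scale, a ratio of 1.64, and the median was 0.113, a ratio of 1.08. The last member kept had its highest 7 weeks library at 3.92 CPM and its lowest 5 or 10 weeks library at 3.96 CPM, and the first ID left out had 9.05 and 9.14 CPM. In 13 members the exact 95% Poisson intervals of these bounding libraries did not overlap, and in the rest they did, which covers counting error only. The lowest count of a member in a 7 weeks library was 5, and the median count per member there was 126 to 282. Which libraries set the limits was uneven. Replicates 3 and 5 were the highest of the 7 weeks libraries in 101 members, and replicate 2 was the lowest in 83. The lowest of the 10 libraries of 5 and 10 weeks was 5 weeks replicate 1, 2 or 3 in 101 members and 10 weeks replicate 1 in 24.

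The membership depended on how libraries were scaled. With TMM factors, which correct each library for a few abundant genes, 376 IDs met the rule, and 117 of the 150 members were among them. With DESeq2 size factors 396 did, among them 116 members. All 150 members kept a lower 7 weeks mean than the average of 5 and 10 weeks under each of the 3 scalings, with a median difference of −0.90 on raw totals, −1.01 with TMM and −1.04 with DESeq2 factors. The median of all IDs in that difference was 0.13, 0.02 and −0.01.

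The widest gap belonged to Nfu_g_1_001969, which was also the most abundant member. Its 7 weeks libraries held 42, 36.4, 36, 36.2 and 57 CPM in replicate order. At 5 weeks it stood at 93.7, 94.8, 118, 166 and 125 CPM and at 10 weeks at 116, 196, 166, 109 and 179 CPM. Every 7 weeks library was thus well below the others of the rule, and replicate 5 was the highest of the 5. At 14 weeks, outside the rule, its levels were 193, 150, 80.8, 67.1 and 118 CPM. The 3 highest 14 weeks libraries lay in the range of 5 and 10 weeks, and replicates 3 and 4 lay between that range and 7 weeks, without overlap with 7 weeks. By edgeR, 14 over 7 weeks was 1.61 on the log2 scale, with an SE of 0.37 and an adjusted p of 0.00784. The 7 weeks libraries were chosen as low, so this difference and its p-value are not independent of the choice. The same holds for 14 over 7 weeks in the other named IDs below.

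Nfu_g_1_005946 had the next widest gap and a more even level at 14 weeks. It was at 6.83, 4.94, 7.1, 6.79 and 10.2 CPM at 7 weeks. The 5 weeks libraries held 16.2, 21, 21, 25 and 30.3 CPM and those of 10 weeks 17.7, 27.7, 28.6, 40.5 and 28.2 CPM. The 14 weeks libraries held 25.8, 31.5, 26.6, 37 and 32 CPM. They overlapped the 10 weeks libraries and lay above every 7 weeks library, and edgeR put 14 over 7 weeks at 2.07 on the log2 scale, with an SE of 0.22 and an adjusted p of 0.000208. Between 14 and 10 weeks the log2 difference was 0.00 with an SE of 0.21 (edgeR, adjusted p = 0.997).

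Nfu_g_1_003045 and Nfu_g_1_018844 had the largest rises from 7 to 14 weeks among 78 other members. These 78 were called higher in edgeR, reached a mean of 10 CPM at 14 weeks and did not overlap with 7 weeks. Of all tested IDs, 9.39% were called higher and 4.31% did not overlap. The share that met all these conditions is not given here, so the 78 are only the pool of the pick. The pick set the call, the lack of overlap and the large size of both rises, which are a description. Nfu_g_1_003045 had 5.63, 3.4, 10.5, 5.84 and 11.4 CPM at 7 weeks and 126, 33, 31.2, 21.4 and 24.6 CPM at 14 weeks, where replicate 1 stood far above the rest. It was 12, 11.9, 18.7, 84.7 and 32.6 CPM at 5 weeks, with replicate 4 apart, and 26.1, 85.3, 89, 73.4 and 49.4 CPM at 10 weeks. For 14 over 7 weeks edgeR gave 2.81 on the log2 scale, with an SE of 0.68 and an adjusted p of 0.00987. Without replicate 1 of 14 weeks this fell to 1.89 (edgeR, adjusted p = 0.0332).

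Nfu_g_1_018844 had 2.72, 1.99, 6.65, 2.06 and 5.08 CPM at 7 weeks and 34.1, 18.7, 24.5, 17.3 and 20.4 CPM at 14 weeks. As the pick required, the groups did not overlap. By edgeR the log2 change was 2.69, with an SE of 0.35 and an adjusted p of 6e-04. The 5 weeks libraries held 7.57, 9.05, 12.4, 13.9 and 16.8 CPM and the 10 weeks libraries 18.2, 26.5, 34.2, 31.1 and 34.2 CPM. Its 10 weeks libraries all lay above its 5 weeks libraries, so the level before the low point was below the level after it.

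**Figure D3:**
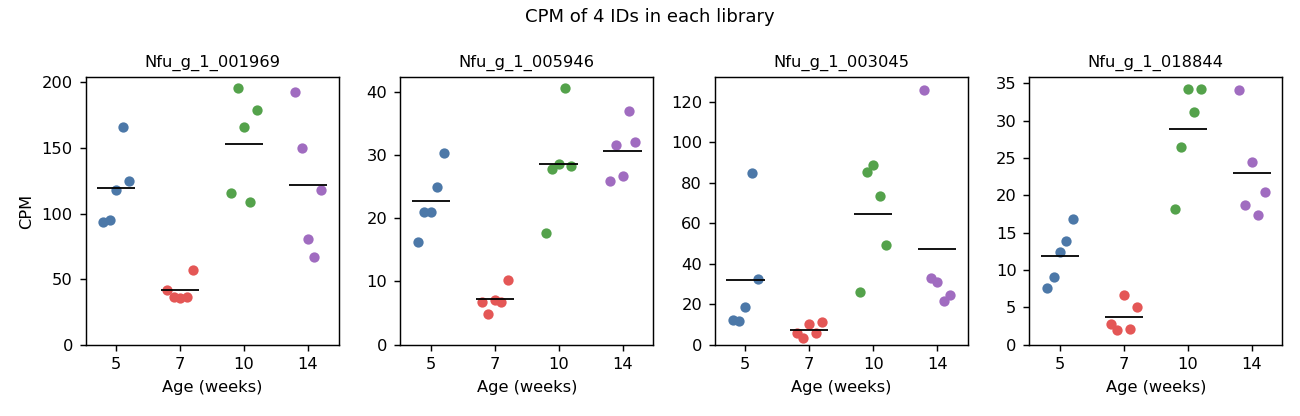
CPM (vertical axis, from 0 in each panel) of the 4 named IDs in every library at 5, 7, 10 and 14 weeks. Points are libraries and black lines are age means (n = 5). In each panel the 7 weeks libraries are the lowest, and the 14 weeks libraries lie above all of them. For Nfu_g_1_003045 and Nfu_g_1_018844 the pick required this of the 14 weeks libraries.

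The levels at 5 and 10 weeks both entered the rule, so their comparison is a description and is not read as a result about the members. The 10 weeks mean was above the 5 weeks mean in 130 of 150 members (86.7%) on log2(CPM + 0.5), with a median difference of 0.30. Among the 4739 IDs within the limits whose 7 weeks mean lay below their 5 and 10 weeks means, the 150 members included, this held in 73.5%, with a median of 0.19. A higher level at 10 than at 5 weeks was thus common among IDs that were low at 7 weeks, whether or not they were members. In edgeR's fit on TMM factors, the median log2 fold change was 0.26 among members and 0.03 among all tested IDs. A single member, Nfu_g_1_018844, was called, higher at 10 weeks (log2 fold change 1.19, SE 0.33, adjusted p = 0.0387), which is 0.667% of the members against 2.38% of tested IDs called higher and 4.23% called lower. That call was lost without 5 weeks replicate 1, 2 or 3 or without 10 weeks replicate 2, 3 or 5, with adjusted p from 0.0783 to 0.116 in edgeR. Leaving out replicate 4 of 5 weeks gave 9 called members, and leaving out replicate 4 of 10 weeks or replicate 3 of 14 weeks gave 3 each. All 10 weeks libraries lay above all 5 weeks libraries in 8 members (5.33%), against 4.55% of tested IDs, and below them in none, against 2.09%. DESeq2 called 6 and limma voom 3, all higher.

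The 5 weeks libraries were not alike in these genes. On a scale set for each member to 0% at its 7 weeks mean and 100% at its 10 weeks mean, the median member stood at 54.3%, 50.6% and 63.5% in 5 weeks replicates 1, 2 and 3 and at 84.5% and 96.6% in replicates 4 and 5. The highest 5 weeks library was replicate 4 or 5 in 131 of 150 members, and the lowest was replicate 1, 2 or 3 in 128. Replicates 4 and 5 are the libraries that lay beside 10 weeks on the second component of all IDs. With both left out, edgeR called 29 members higher at 10 than at 5 weeks, where 6.32% of tested IDs were called higher. Leaving out the 5 weeks libraries in which most members were highest lowers the 5 weeks mean by construction, so counts without them show only how far the comparisons with 5 weeks rest on these 2 libraries. Replicates were numbered in accession order, and the number in the library title rises with that order. It is therefore higher in replicates 4 and 5, the 2 libraries apart, than in replicates 1, 2 and 3. The title number is also lower in every 5 weeks library than in any library of a later age, and its meaning is not given. Whether what the title number stands for sets replicates 4 and 5 apart was not tested. Beyond this order, the labels give nothing that separates these 2 libraries from the other 5 weeks libraries.

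At 14 weeks the members were again high. The 14 weeks mean was above the 7 weeks mean in 149 of 150 members, with a median difference of 0.97 on log2(CPM + 0.5) against 0.08 for all IDs within the limits. In edgeR 124 members (82.7%) were called higher at 14 than at 7 weeks and none lower, where 9.39% of tested IDs were called higher and 8.16% lower. No member was lower at an unadjusted p under 0.05, against 14.3% of tested IDs, and DESeq2 and limma voom called none lower either, with 130 and 111 called higher. The 7 weeks libraries were chosen as low, which raises this count whatever the 14 weeks level is, so only the 14 weeks side of the comparison is apart from the rule. In 121 members (80.7%) every 14 weeks library lay above the highest 7 weeks library, as in 4.31% of tested IDs. With TMM-scaled libraries this held in 92 members and with DESeq2 factors in 93, and the share of all IDs on these scalings is not given here.

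The remaining 29 members overlapped with 7 weeks in at least 1 of the 14 weeks libraries. Of these, 20 did so in a single library, 5 in 2, 2 in 3 and 2 in 4, and no member did so in all 5. By library, 15 members were not above the highest 7 weeks value in 14 weeks replicate 4, 10 in replicate 3, 8 in replicate 5, 7 in replicate 2 and 4 in replicate 1. Replicates 4 and 3, with the most, were also the libraries farthest out on the first component. Without these 2 libraries and the 2 others apart on that component, 136 members were called higher at 14 weeks. Of the libraries left out, 7 weeks replicate 3 was the highest of its age in 50 members and the lowest in 8. Replicates 3 and 4 of 14 weeks were the lowest of their age in 33 and 42 members and the highest in 22 and 36. Leaving them out thus itself moves the comparison, and the share of all tested IDs called is not given here. The only member with its lowest mean at 14 weeks, of rank 145 by the gap, had 4.22 CPM there and 4.54 CPM at 7 weeks, with overlapping libraries.

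Sets chosen in the same manner at other ages show how often their IDs had moved away from such an extreme by 14 weeks. Of all 161 IDs lowest at 7 weeks, every 14 weeks library lay above the 7 weeks libraries in 128 (79.5%). Of the 257 IDs highest at 7 weeks, every 14 weeks library lay below them in 114 (44.4%). Of the 237 IDs lowest at 10 weeks against 5 and 7 weeks, every 14 weeks library lay above the 10 weeks libraries in 11 (4.64%). Of the 66 lowest at 5 weeks it did so in 17 (25.8%). Every 14 weeks library lay below that age in 22 of the 398 highest at 10 weeks (5.53%) and in 3 of the 13 highest at 5 weeks (23.1%). Over all tested IDs, every 14 weeks library lay above every 7 weeks library in 4.31%. The same share was 0.318% against 10 weeks and 2.17% against 5 weeks. All 14 weeks libraries lay below all those of 10 weeks in 0.365% of tested IDs and of 5 weeks in 0.36%. The share below 7 weeks is not given here. These shares of all tested IDs differ between the ages, and the ages lie at unlike distances from 14 weeks. The shares of the sets are therefore not like for like. These sets share libraries and their shares were not tested against each other.

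Compared with 5 and 10 weeks, the 14 weeks level of the members showed no called difference, but hardly any tested ID was called in these comparisons. The absence of calls is therefore not read as a result about the members. In edgeR 0 members were called between 14 and 5 weeks, where 0% of tested IDs were called higher and 0.0104% lower. At an unadjusted p under 0.05, 8 members were higher and 1 lower (5.33% and 0.667%), against 15.6% and 7.89% of tested IDs. DESeq2 called 1 and limma voom 0. Between 14 and 10 weeks 0 members and 0% of tested IDs were called in edgeR, with 2 members higher and 5 lower at an unadjusted p under 0.05, against 15% and 3.77% of tested IDs, and DESeq2 and limma voom called 0 members. Without replicate 1 of 14 weeks, 3 members were called against 5 weeks (1 higher and 2 lower) and 1, lower, against 10 weeks. Without replicate 2 of 14 weeks, 1 was called higher against 5 weeks. With replicates 4 and 5 of 5 weeks both left out, 10 were called higher at 14 than at 5 weeks, where 3.43% of tested IDs were. Every 14 weeks library lay above every 5 weeks library in 5 members (3.33%, against 2.17% of tested IDs) and below in 0 (against 0.36%). Against 10 weeks this held in 0 members above (0.318% of tested IDs) and in 2 below (1.33%, against 0.365%). The 14 weeks mean lay within the range of the 5 and 10 weeks libraries in 139 members (92.7%), above it in 9 and below it in 2, while 81.6% of all IDs within the limits lay inside. The median 14 minus 10 weeks difference was −0.07 on log2(CPM + 0.5) among members and 0.18 among all IDs within the limits. In the TMM fit these medians were −0.16 and 0.08.

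The rule limits the orders that the 4 age means can take. From low to high, 69 members (46%) ran 7, 5, 14 and 10 weeks, an order found in 8.17% of all IDs within the limits. A further 49 (32.7%) ran 7, 5, 10 and 14 weeks, against 10.8%. The highest mean was at 10 weeks in 81 members, at 14 weeks in 61 and at 5 weeks in 8. Since the rule fixes 7 below 5 and 10 weeks, these shares differ from those of all IDs by construction, and neighbouring means after 7 weeks mostly did not differ beyond the spread between libraries.

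Within an age, members varied less between libraries than IDs in general. The median SD of a member's log2(CPM + 0.5) over the 5 libraries was 0.27 at 5 weeks, 0.28 at 7 weeks, 0.27 at 10 weeks and 0.36 at 14 weeks. For all IDs within the limits it was 0.38, 0.33, 0.42 and 0.56. A narrow spread at 5, 7 and 10 weeks is what the rule favours, while the 14 weeks spread did not enter it. IDs with a narrow spread at those ages may also have one at 14 weeks. The 14 weeks value is therefore not independent of the choice. Of the 26739 IDs, 484 switched strongly between libraries (the second-highest library over 10 CPM and more than 5 log2 units above the sixth-lowest). None of these was a member. In 121 members the 5 lowest libraries were those of 7 weeks, so the sixth-lowest was of another age. The 14 weeks libraries also enter this, so the rule does not fix the absence of members. How far the absence follows from the choice was not tested, and it is not read as a result about the members.

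**Figure D4:**
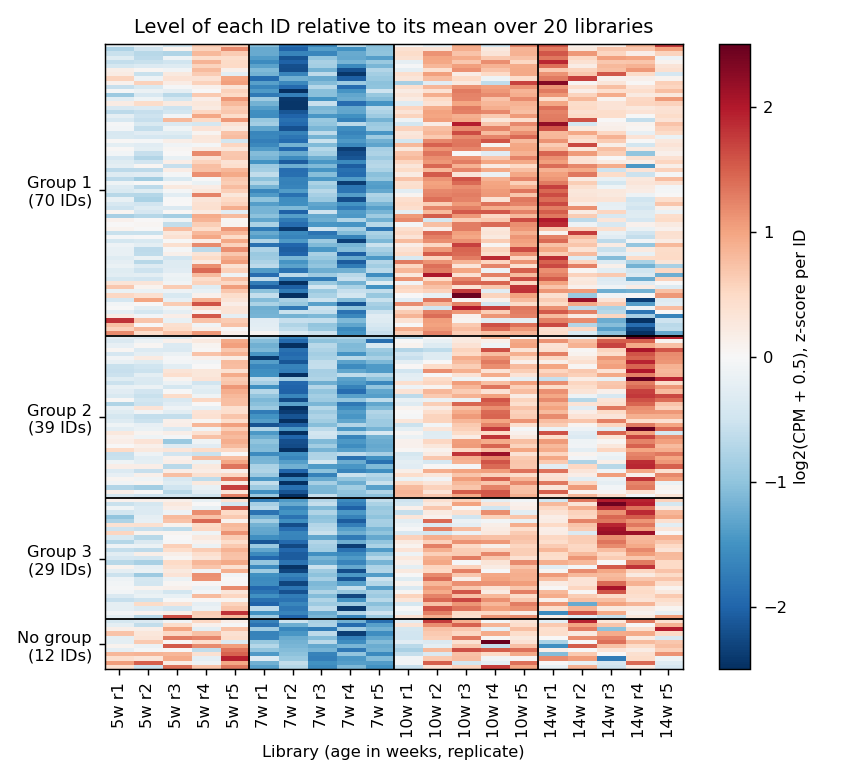
Level of each of the 150 IDs (rows) in the 20 libraries (columns, by age in weeks and replicate), as log2(CPM + 0.5) relative to the ID's mean in units of its SD over libraries, with rows in group 1 (70 IDs), group 2 (39), group 3 (29) and no group (12). The 7 weeks columns are low in all rows by the rule, and the groups differ in which 14 weeks libraries are high.

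The members did not move as a single block within an age. Taking each library's deviation from its age mean on log2(CPM + 0.5), Pearson's r between members over the 20 libraries had a median of 0.294, with quartiles of 0.0729 and 0.491, and 81% of pairs were positive. Among 3441 IDs taken at even steps through those within the limits, the median was 0.217, with quartiles of −0.122 and 0.515. All these values share the same libraries and scaling and are a description. Average linkage on 1 minus this r at a height of 0.7 gave groups of 70, 39 and 29 members and left 12 in smaller ones. These groups were formed from the data and were not tested.

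The group of 70 members held the largest part of the sum, with 1818 ± 305 CPM at 5 weeks, 1022 ± 125 at 7 weeks, 2430 ± 293 at 10 weeks and 2079 ± 509 at 14 weeks (SD, n = 5 each). At 14 weeks replicate 1 reached 2907 CPM and replicate 4 stood at 1621 CPM. In its median member, replicate 1 was 0.44 above and replicate 4 was −0.26 from the 14 weeks mean on the log2 scale. All 14 weeks libraries lay above all 7 weeks libraries in 51 of the 70, where this held in 80.7% of all members and 4.31% of tested IDs.

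The group of 39 members was high in other 14 weeks libraries. It summed to 613.6 ± 116 CPM at 5 weeks, 352.8 ± 50.9 at 7 weeks, 739.6 ± 145 at 10 weeks and 876.4 ± 279 at 14 weeks (SD, n = 5 each). Its highest 14 weeks library was replicate 4 at 1312 CPM and its highest 10 weeks library was replicate 4 at 949.4 CPM, both among the libraries apart on the first component. In the former the 10 most abundant IDs took 8.81% of the counts and in the latter 10.9%, the lowest shares of the 20 libraries. The part of that shift in the group's level was not tested. In 36 of the 39 every 14 weeks library lay above every 7 weeks library, where this held in 80.7% of all members and 4.31% of tested IDs.

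The group of 29 members was the most even after 7 weeks. It summed to 589.7 ± 103 CPM at 5 weeks, 336 ± 47.4 at 7 weeks, 676.6 ± 64.1 at 10 weeks and 776.2 ± 134 at 14 weeks (SD, n = 5 each). Its 14 weeks sum was highest in replicate 3, at 943.1 CPM, and lowest in replicate 1, at 629.9 CPM. In 27 of the 29 every 14 weeks library lay above every 7 weeks library, against 80.7% of all members and 4.31% of tested IDs. Median lengths were 3091, 2122 and 1596 bases in the groups of 70, 39 and 29. Across all 3 groups, 5 weeks replicate 5 lay above its age mean in the median member, by 0.29, 0.43 and 0.24 on the log2 scale, and 7 weeks replicate 2 and 10 weeks replicate 1 lay below theirs.

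**Figure D5:**
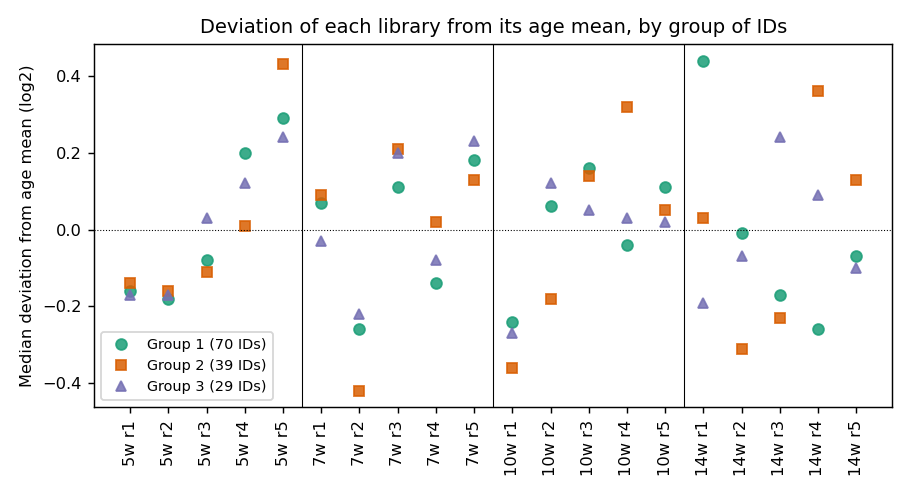
Median deviation of the members of each group from their age mean, on log2(CPM + 0.5) (vertical axis), in the 20 libraries (horizontal axis, age in weeks and replicate). Circles are group 1 (70 IDs), squares group 2 (39) and triangles group 3 (29). At 5, 7 and 10 weeks the groups share the sign of their deviation in most libraries, and they part at 14 weeks, where replicate 1 is high in the group of 70 (0.44) and replicate 4 in the group of 39 (0.36).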

How the data were processed

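Skin RNA of 20 libraries, 5 at each of 4 ages, was sequenced after a TruSeq RNA preparation, per the labels' protocols. The authors deposited raw counts per gene ID and RPKM values. Per the submitters' processing notes, the tools included featureCounts 1.4.6-p4, STAR 2.4.1d and CASAVA 1.8.2. For the build, the annotation and strand, the entry is: not given in the sources used here. Reads of overlapping genes, of antisense partners or of close copies may thus be mixed. The members and comparisons were chosen with earlier results of these data known.

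Levels are CPM on raw library totals. Tests used edgeR 4.0.16 in R 4.3.3 on the deposited counts (filterByExpr, TMM, glmQLFit and glmQLFTest on 4 age means over all 20 libraries, 16 residual degrees of freedom), with Benjamini-Hochberg adjustment over 19192 IDs at 0.05. All 150 members passed the filter. Each SE was obtained from the fold change and its F statistic. Steps were tested on simulated data. DESeq2 1.42.0 and limma 3.58.1 (voom) were alternatives. Member counts given without a share of all IDs show only how far a count moved with the setting. Named IDs are the 2 with the widest gap and the 2 others with the largest called rise from 7 to 14 weeks, with a mean of at least 10 CPM at 14 weeks and no overlap. Replicates were numbered in accession order and pair nothing.

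The deposited RPKM values were divided by depths that repeat in a series of 25 down the rows, 20 of which match library totals. Counts, length and that series gave 99.8% of the values above 0 within 0.1% or the last decimal, against 4.27% with each library's own total. RPKM was therefore used only to recover gene lengths. The lists of marker genes could not be used without gene names.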

Additional observations from a re-analysis of the deposited data

Results flagged for a closer look

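In each group of 5 libraries, a library was looked at when its distance to the nearest other exceeded 0.71 of the group's range, which chance alone gives in about 1 of 20 groups. Of 32 groups of values, 5 had such a library. The summed level of the 150 IDs at 10 weeks was 3253 CPM in replicate 1, apart from 4158 to 4421 CPM in the other 4, and the group of 29 members stood at 563 CPM in the same library. Nfu_g_1_001969 was at 57 CPM in 7 weeks replicate 5, above 36 to 42 CPM in the others. Nfu_g_1_003045 was at 84.7 CPM in 5 weeks replicate 4 and at 126 CPM in 14 weeks replicate 1.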

How the results depend on the processing

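Among members, the number called higher at 14 than at 7 weeks stayed within 1.5 times of 124 in all alternatives, from 94 with only these ages fitted to 136 without the 4 libraries apart on the first component, and from 98 to 129 without single libraries. The counts between 10 and 7 weeks and between 7 and 5 weeks rest on the contrasts that chose the members and show only their dependence on the setting. Members called between 10 and 7 weeks ran from 123 to 143 without single libraries. Between 7 and 5 weeks they ran from 6 to 75 without single libraries, with 116 in DESeq2 and 1 without 5 weeks replicates 4 and 5. Between 14 and 5 weeks they ran from 0 to 3 without single libraries, with 1 in DESeq2 and 10 without 5 weeks replicates 4 and 5. Between 14 and 10 weeks they ran from 0 to 1. Between 10 and 5 weeks they ran from 0 to 9 without single libraries, with 2 on DESeq2 size factors in edgeR, 6 in DESeq2, 3 in limma voom, 3 with only these ages fitted, 11 without the 4 libraries apart and 29 without 5 weeks replicates 4 and 5. IDs that met the rule numbered 376 with TMM and 396 with DESeq2 factors, and 161 to 327 without single libraries, the highest without 7 weeks replicate 3. Of the 150 members, 74 and 67 were among the 150 widest gaps on these 2 scalings, and 148 with an offset of 2 CPM. Members with no overlap between 14 and 7 weeks ran from 121 to 128 without single libraries. This count cannot fall when a library is left out, whereas it did fall with TMM and DESeq2 factors. The rule likewise becomes easier to meet with fewer libraries, so the range of 161 to 327 runs upward by construction. Leaving out replicates 4 and 5 of 5 weeks lowers the members' 5 weeks mean by construction, and the cause of the other moves was not tested. The RPKM alternative was not run, since the deposited values carry other libraries' depths. No paired analysis was possible because the labels give no replicate numbers. Counts as low as 4 in a library (14 weeks replicate 4) limit the rarest members.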
